A study of Mus musculus with 6 samples.

Results

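The genes described here are the interleukins and interleukin receptors outside the IL-1 family that the NanoString nCounter Myeloid Innate Immunity panel measures. The nCounter assay counts color-coded probes bound to each transcript without amplification. The genes were chosen by name, as every symbol that starts with Il followed directly by a digit, leaving out Il1a, Il1b, Il1rn, Il1r1, Il1r2, Il1rap, Il1rl1, Il18 and Il33. The rule gave 26 of the 754 genes on the panel. Of these, 10 were receptors, with an r directly after the number, and the other 16 were on the ligand side. The name rule keeps Il18r1, although its product belongs to the IL-1 receptor family, and Il4i1, which encodes an L-amino acid oxidase and not a cytokine.

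Macrophages were sorted as F4/80+, CD11b+ cells from the peritoneal lavage of adult C57BL/6J mice that bore ID8 ovarian tumors. ID8 is a mouse ovarian surface epithelial tumor line that grows in the peritoneal cavity. In both groups the tumor cells had been given 7 weeks before treatment, and the mice received 2 intraperitoneal injections, on day 1 and day 5. The PBS group (3 samples) received PBS alone, and the IRF5-NP group (3 samples) received nanoparticles with 30 µg of mIRF5 mRNA per dose. IRF5 is a transcription factor that drives an inflammatory program in macrophages. The study's methods give a larger dose and a shorter time of tumor growth for its ovarian model, and pair IRF5 mRNA with mRNA for the kinase IKKβ, which the labels do not name. The labels do not say whether the samples came from separate mice or from pools, so the p-values measure only the spread between these samples.

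Interleukins are small secreted proteins that bind paired receptor chains on the target cell. The receptors for IL-3, IL-4, IL-5, IL-6, IL-10, IL-15, IL-21 and IL-27 signal through JAK kinases and STAT transcription factors, with SOCS proteins as feedback inhibitors, while those for IL-17 and IL-18 lead to NF-κB. In macrophages, IL-4 and IL-13 act through the IL-4 receptor α chain to induce genes of alternative activation, IL-10 restrains inflammatory gene expression, and IL-6 and IL-12 are secreted upon inflammatory stimulation. The IL-12 cytokine is a pair of the Il12a and Il12b products, and IL-23 is a pair of the Il23a and Il12b products.

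The deposited values are counts scaled to housekeeping genes, called normalized counts below. The total over all genes lay between 683472 and 1830318 counts per sample. The smallest total was that of IRF5-NP replicate 3, whose counts had been multiplied by 2.60, against 0.952 to 1.25 in the other samples. Each sample's background, taken at 2 SD over the average of its 8 negative probes, came to 25.6 to 37.8 normalized counts in 5 samples and to 79.4 in IRF5-NP replicate 3. The difference between PBS replicates 2 and 3 was not significant against counting noise over all genes (chi-square per degree of freedom 1.07, p = 0.0782), and they were counted as 1 sample, so that 2 PBS values were compared with 3 IRF5-NP values. The replicates numbered 1 stood apart from the others of their group, with a chi-square per degree of freedom of 158 and 179 in the PBS group and of 54.0 and 97.7 in the IRF5-NP group. The labels do not call them a batch.

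The sort markers Adgre1 (F4/80) and Itgam (CD11b) were far above background in every sample, and all 8 measured macrophage markers of a list of 9 were above it. Irf5, the gene of the delivered mRNA, measured 2573, 1991 and 1929 normalized counts in PBS replicates 1, 2 and 3, and 1960, 2358 and 2294 in IRF5-NP replicates 1, 2 and 3. The groups overlapped, with a log2 fold change of -0.03 (SE 0.22, adjusted p = 0.947), whose sign turned under other scalings. Whether the Irf5 probe reads the delivered mRNA, which is codon-optimized in the study's methods, is not known here.

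Most of the receptors were detected and few of the interleukins were. A gene was above background in all 6 samples for 8 of the 10 receptors, but for 1 of the 16 genes on the ligand side, Il15. A further 9 genes were below background in every sample, namely Il12a, Il12b, Il13, Il2, Il22, Il25, Il4, Il5 and the receptor Il5ra. Their values of 5.01 to 36.4 normalized counts came from 4 to 31 counts. The remaining 8 genes, Il27ra, Il10, Il23a, Il27, Il3, Il4i1, Il6 and Il9, passed background in some samples. Over the whole panel, 482 of 754 genes (63.9%) were above background in every sample and 124 (16.4%) in none. With the highest negative probe as the limit, 12 of the 26 genes were above it in every sample, 9 of them receptors, and 8 were below it in every sample.

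Two-sided tests with limma, adjusted by Benjamini-Hochberg over all 754 genes, called 2 of the 26 genes, both of them receptors. Il27ra rose and Il15ra fell with IRF5-NPs. The 26 genes were called no more often than the panel, at 7.69% against 9.55% of all genes. In each direction the panel background was 2.52% higher and 7.03% lower. With all 6 samples kept separate, limma called Il15ra, Il18r1, Il27ra and Il4ra, that is 4 of the 26 genes, against 16.0% of the panel. The count test of edgeR called Il10, Il15ra, Il27ra and Il4ra, that is 4 of the 26 genes, against 11.9% of the panel. The 2 genes called by limma were Il18r1 and Il27ra with samples set to a common median, against 10.3% of the panel, and Il10ra and Il27ra after quantile normalization, against 9.95%, all of them higher with IRF5-NPs. A block that set the replicates numbered 1 apart, chosen after seeing the data, gave Il15ra, Il18r1, Il27ra, Il4ra and Il6, against 17.6% of the panel, and background subtraction gave Il10 and Il23a, against 7.01%. After subtraction, Il10 and Il23a had IRF5-NP values set to a floor of 1, on which their calls depend. At an unadjusted p under 0.05, limma had 7 of the 26 genes (26.9%) and 191 of 754 on the panel (25.3%). The median log2 fold change was 0.10 over the receptors and 0.16 over the ligand side, beside -0.03 over all genes. All 3 IRF5-NP values lay above all 3 PBS values for 3 of the 26 genes (Il10ra, Il18r1 and Il27ra), against 17.0% of the panel, and below them for 4 (Il10, Il15ra, Il23a and Il4ra), against 20.4% of the panel.

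**Figure D1:**
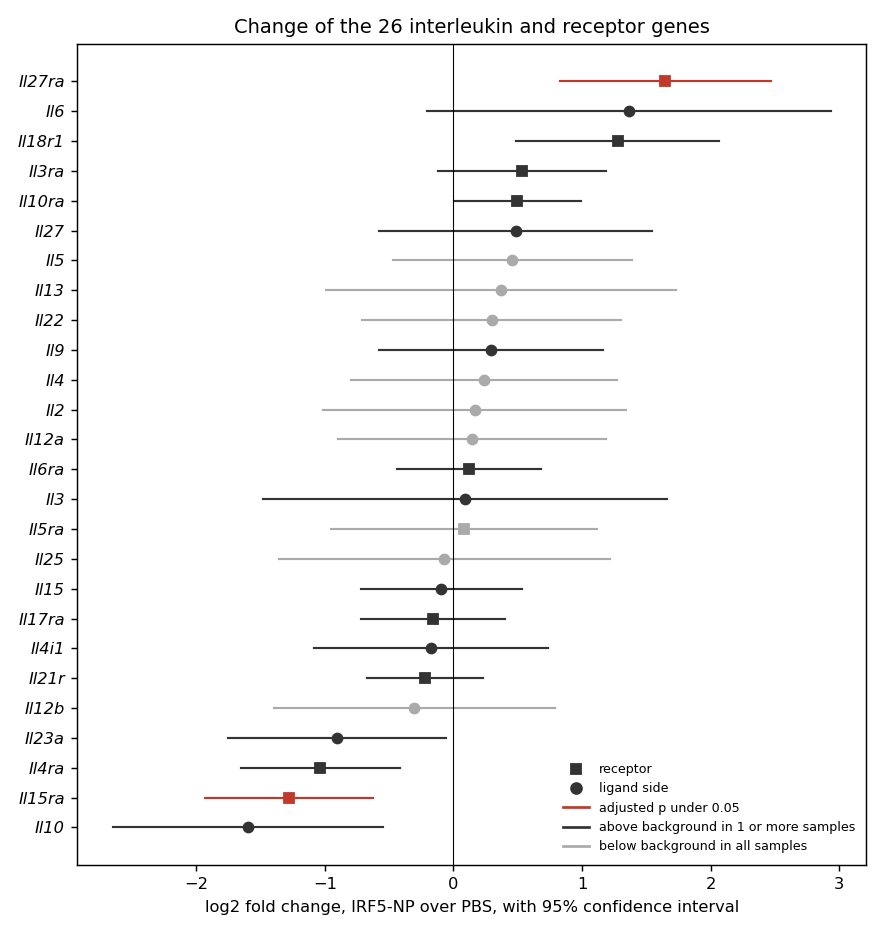
The log2 fold change of each of the 26 genes, IRF5-NP over PBS, with its 95% confidence interval from limma, receptors and ligand side apart. Il27ra (1.65) and Il15ra (-1.28) passed the adjusted threshold of 0.05, and the intervals of Il4ra, Il18r1, Il10, Il10ra and Il23a also stayed clear of 0 without passing it.

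The receptor genes are taken first. Il27ra encodes the ligand-binding chain of the IL-27 receptor, which pairs with gp130. It measured 32.2, 51.7 and 53.8 normalized counts in PBS replicates 1, 2 and 3, and 93.3, 153 and 159 in IRF5-NP replicates 1, 2 and 3. The PBS value of replicate 1 was below background, and every IRF5-NP value exceeded every PBS value. From 42.5 ± 14.6 (SD, n = 2) in the PBS group the mean rose to 135 ± 36.2 (SD, n = 3). The log2 fold change was 1.65 (SE 0.35, adjusted p = 0.0293 in limma), or 3.14-fold. The values came from 31 to 139 counts per sample. The difference was alike among the replicates numbered 1 (log2 difference 1.51) and the others (1.54). The call was lost when IRF5-NP replicate 2 (1.54, adjusted p = 0.0724) or IRF5-NP replicate 3 (1.51, adjusted p = 0.123) was left out. It was also lost when values under the highest background were raised to it, which cut the change to 0.72 (adjusted p = 0.131). Without PBS replicate 1, which left 1 PBS value to compare, the change was 1.30.

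Il15ra encodes the chain that binds IL-15 and presents it to neighboring cells. Its values were 299, 210 and 208 normalized counts in PBS replicates 1, 2 and 3, and 82.8, 106 and 122 in IRF5-NP replicates 1, 2 and 3. The groups did not overlap, and PBS replicate 1 was the highest sample. Il15ra averaged 254 ± 63.5 (SD, n = 2) in the PBS group, 104 ± 19.8 (SD, n = 3) in the IRF5-NP group, and fell by 1.28 on the log2 scale (SE 0.28, adjusted p = 0.0318 in limma). The difference was larger among the replicates numbered 1 (-1.84) than among the others (-0.87). Il15ra missed the threshold when any 1 of the 3 IRF5-NP samples was left out (adjusted p = 0.0638 to 0.0951). It also missed it with a common median (-1.04, adjusted p = 0.0538) or quantile normalization (-1.13, adjusted p = 0.0502). Without PBS replicate 1, which left 1 PBS value to compare, the change was -1.02. The ligand, Il15, was measured between 85.0 and 120 normalized counts in all 6 samples, with a log2 fold change of -0.09 (SE 0.27, adjusted p = 0.880).

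Il4ra encodes the α chain shared by the receptors for IL-4 and IL-13. It measured 4378, 2700 and 2636 normalized counts in PBS replicates 1, 2 and 3, and 1892, 1660 and 1476 in IRF5-NP replicates 1, 2 and 3. The groups were separate, with PBS replicate 1 well above the other samples. Its log2 fold change of -1.03 (SE 0.27, 95% interval -1.65 to -0.41) missed the threshold in limma with an adjusted p of 0.0503 and passed it in edgeR (-1.07, adjusted p = 0.0416). In limma it also missed the threshold with a common median (-0.80, adjusted p = 0.105) and quantile normalization (-0.73, adjusted p = 0.146). The same held without any 1 of the IRF5-NP samples (adjusted p = 0.0666 to 0.21). Il4ra passed in 7 of 22 alternatives, which are not independent. The difference was -1.21 among the replicates numbered 1 and -0.77 among the others.

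Il18r1 encodes the IL-18-binding chain of a receptor best known in T and NK cells. It measured 41.5, 47.6 and 56.3 normalized counts in PBS replicates 1, 2 and 3, against 165, 86.0 and 104 in IRF5-NP replicates 1, 2 and 3. The groups were separate, with PBS replicate 1 just above its background of 37.8. Its log2 fold change of 1.28 (SE 0.34, 95% interval 0.49 to 2.07) also missed the threshold (adjusted p = 0.0565). It was 1.96 among the replicates numbered 1 and 0.86 among the others.

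The promoters of Il15ra, Il4ra and Il18r1, which had the largest differences among the receptor genes with a listed promoter, and that of Il6, were taken from RefSeq (GRCm38.p6) as the 250 bases before the most upstream listed start, written 5′ to 3′ on the gene's strand. All 4 genes lie on the plus strand, and the regions are chr2:11705043-11705292 for Il15ra, chr7:125552021-125552270 for Il4ra, chr1:40465302-40465551 for Il18r1 and chr5:30012864-30013113 for Il6. Capitals mark a match to 1 of 4 motifs searched on both strands. These were TTC and GAA with 4 bases between them (STAT6), the same letters with 3 bases between them (other STATs), GAAA and GAAA with 2 bases between them (interferon response element), and GGG and TTTCC with 2 bases between them (NF-κB).
Il15ra: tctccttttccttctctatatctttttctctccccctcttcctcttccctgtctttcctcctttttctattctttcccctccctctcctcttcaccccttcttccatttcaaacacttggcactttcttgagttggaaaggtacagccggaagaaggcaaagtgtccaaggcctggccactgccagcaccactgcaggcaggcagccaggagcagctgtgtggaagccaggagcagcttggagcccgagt
Il4ra: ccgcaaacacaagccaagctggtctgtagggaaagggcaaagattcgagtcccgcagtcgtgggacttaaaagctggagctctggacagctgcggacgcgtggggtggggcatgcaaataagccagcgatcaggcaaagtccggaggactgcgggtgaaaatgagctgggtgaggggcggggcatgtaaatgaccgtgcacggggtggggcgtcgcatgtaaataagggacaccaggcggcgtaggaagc
Il18r1: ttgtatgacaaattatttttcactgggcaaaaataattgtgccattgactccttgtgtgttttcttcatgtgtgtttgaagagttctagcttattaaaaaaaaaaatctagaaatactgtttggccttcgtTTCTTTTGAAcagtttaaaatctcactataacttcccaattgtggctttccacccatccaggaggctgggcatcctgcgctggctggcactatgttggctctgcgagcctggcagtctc
Il6: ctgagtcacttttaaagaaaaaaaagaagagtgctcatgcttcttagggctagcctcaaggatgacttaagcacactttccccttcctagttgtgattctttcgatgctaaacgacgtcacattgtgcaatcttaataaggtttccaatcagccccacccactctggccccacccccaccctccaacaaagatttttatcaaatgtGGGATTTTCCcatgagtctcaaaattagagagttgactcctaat
The Il18r1 window holds a STAT6 match that begins 119 bases before the start, and the Il6 window an NF-κB match that begins 44 bases before it. A later listed start of Il18r1 has matches to the letters for other STATs that begin 219 and 152 bases before it, a motif found in 7.02% of 32851 promoters. Matches to the STAT6 letters are found in 5.85% of promoters and matches to the NF-κB letters in 1.41%. The Il15ra and Il4ra windows hold no match to the 4 motifs. The table holds promoters of 18 of the 26 genes, and lists none for Il10, Il10ra, Il15, Il17ra, Il23a, Il25, Il27 and Il27ra.

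The other receptor genes above background showed smaller differences, and limma called 0 of these 5, beside 9.55% of the panel, with 1 (Il10ra) at an unadjusted p under 0.05, beside 25.3%. Il10ra, the ligand-binding chain of the IL-10 receptor, measured 987, 1025 and 995 normalized counts in PBS replicates 1, 2 and 3, and 1178, 1495 and 1593 in IRF5-NP replicates 1, 2 and 3. Its groups did not overlap, yet the log2 fold change of 0.50 (SE 0.21) had an adjusted p of 0.195 in limma. With samples scaled by the positive controls it was -0.37, beside a median of -0.88 over all genes.

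Il3ra, the specific chain of the IL-3 receptor, measured 423, 350 and 342 normalized counts in PBS replicates 1, 2 and 3, and 394, 654 and 663 in IRF5-NP replicates 1, 2 and 3. IRF5-NP replicate 1 lay within the PBS range, and the other IRF5-NP samples above it. Il3ra had a log2 fold change of 0.54 (SE 0.28, 95% interval -0.12 to 1.19, adjusted p = 0.296), with a difference of -0.10 among the replicates numbered 1 and 0.93 among the others.

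Il6ra, the IL-6-binding chain, measured 1217, 777 and 756 normalized counts in PBS replicates 1, 2 and 3, and 1028, 1066 and 1058 in IRF5-NP replicates 1, 2 and 3. All IRF5-NP values lay inside the PBS range, which PBS replicate 1 set at its top. Il6ra had a log2 fold change of 0.12 (SE 0.24, 95% interval -0.44 to 0.68, adjusted p = 0.811), with -0.24 among the replicates numbered 1 and 0.47 among the others.

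Il17ra, the common chain of the IL-17 receptors, measured 992, 690 and 774 normalized counts in PBS replicates 1, 2 and 3, and 683, 936 and 699 in IRF5-NP replicates 1, 2 and 3. The groups overlapped, and the log2 fold change was -0.16 (SE 0.24, 95% interval -0.72 to 0.40, adjusted p = 0.768). Il21r, the specific chain of the IL-21 receptor, measured 775, 734 and 673 normalized counts in PBS replicates 1, 2 and 3, and 695, 596 and 613 in IRF5-NP replicates 1, 2 and 3. The IRF5-NP sample of replicate 1 lay within the PBS range, and the log2 fold change was -0.22 (SE 0.20, 95% interval -0.67 to 0.23, adjusted p = 0.576). For Il17ra and Il21r the sign of this small difference turned when samples were set to a common median, which moved the median of all genes from -0.03 to 0.21. Il5ra, the IL-5-binding chain found on eosinophils, stayed below background, at 7.51 to 18.2 normalized counts.

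**Figure D2:**
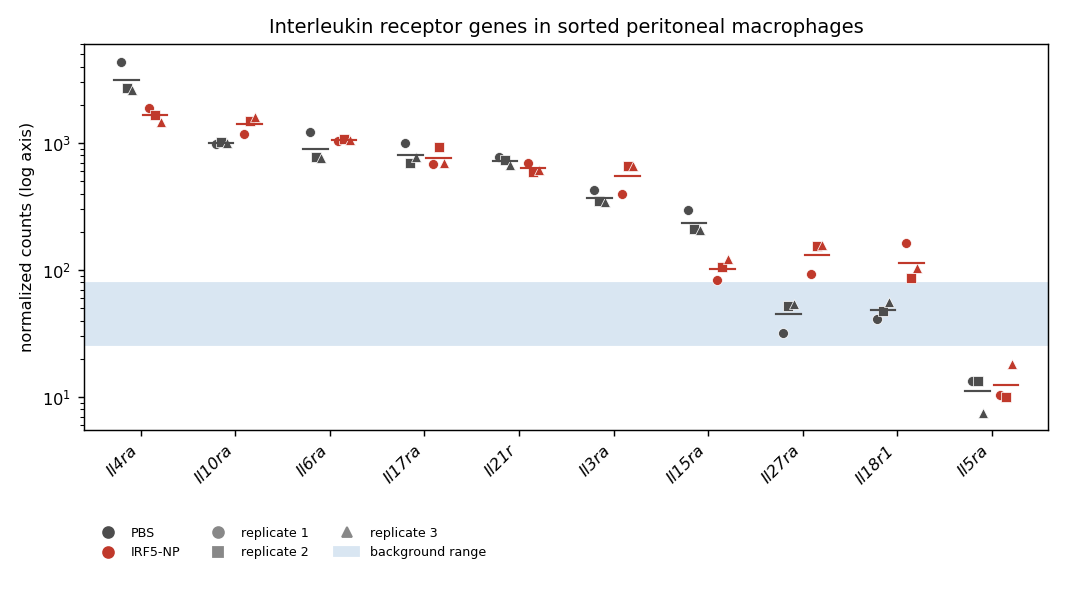
Normalized counts (log axis) of the 10 receptor genes in each of the 3 PBS and 3 IRF5-NP samples. Points are samples, horizontal bars are geometric means of the 3 samples of a group, and the shaded band spans the background of the 6 samples, 25.6 to 79.4 normalized counts. Il27ra and Il18r1 were higher and Il15ra and Il4ra lower in all 3 IRF5-NP samples than in any PBS sample, and Il5ra lay below the band.

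On the ligand side, limma called 0 of 16 genes after adjustment. At an unadjusted p under 0.05 it called 2 of the 16 (12.5%), Il10 and Il23a, against 25.3% of the panel. The methods' t-test, run here with PBS replicates 2 and 3 averaged, called 1 of the 16 and 125 of 754 at that level, and 0 after Benjamini-Hochberg adjustment. After adjustment, edgeR called Il10, limma on background-subtracted values called Il10 and Il23a, and limma with the replicates numbered 1 as a block called Il6. The subtraction took off the average of a sample's negative probes and set results under 1 to 1. Every IRF5-NP value of Il23a became 1, as did those of Il10 in IRF5-NP replicates 1 and 3. The spread in that fit was thus set by the floor, and its calls are no test of these differences.

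Il10 encodes an anti-inflammatory cytokine that macrophages both secrete and respond to. It measured 104, 40.4 and 45.1 normalized counts in PBS replicates 1, 2 and 3, and 17.1, 19.8 and 28.6 in IRF5-NP replicates 1, 2 and 3. All 3 PBS values were above background and all 3 IRF5-NP values below it, so the latter give only an upper bound on the level. The values came from 36 to 100 counts with PBS and 11 to 18 counts with IRF5-NPs. The log2 fold change of the measured values was -1.60 (SE 0.45, 95% interval -2.64 to -0.55), with an adjusted p of 0.0647 in limma, while edgeR (-1.78, adjusted p = 0.0424) and limma after background subtraction (-5.12, adjusted p = 0.025) called it. After subtraction, IRF5-NP replicates 1 and 3 were set to a floor of 1, so the size and p-value of that fit depend on the floor. With values under the highest background raised to it, the change was -0.19 (adjusted p = 0.472). PBS replicate 1 was 2.43 times the mean of the other PBS samples, and the difference was -2.53 among the replicates numbered 1 and -0.81 among the others.

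Il6 encodes a cytokine of the acute inflammatory response. It measured 32.2, 148 and 139 normalized counts in PBS replicates 1, 2 and 3, and 88.5, 259 and 242 in IRF5-NP replicates 1, 2 and 3. The replicate numbered 1 was the lowest in each group, and in PBS it was below background, at 0.224 times the mean of the other PBS samples. IRF5-NP replicate 1 lay within the PBS range and the other IRF5-NP samples above it. Between the groups, Il6 differed by a log2 fold change of 1.36 (SE 0.68, 95% interval -0.20 to 2.93, adjusted p = 0.265), which ranged from 0.30 to 1.86 as single samples were left out. It was 1.43 among the replicates numbered 1 and 0.80 among the others. With the replicates numbered 1 set apart as a block, chosen after seeing the data, limma called Il6 (1.07, SE 0.26, adjusted p = 0.0256). That fit called 17.6% of the panel. The same block with 6 separate samples gave 1.01 (adjusted p = 0.00638) and called 27.1% of the panel. It counts PBS replicates 2 and 3, treated elsewhere as 1 sample, as separate.

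Il12a and Il12b encode the p35 and p40 subunits of IL-12. Il12a measured 16.6, 15.5 and 13.8 normalized counts in PBS replicates 1, 2 and 3, and 10.5, 21.0 and 23.4 in IRF5-NP replicates 1, 2 and 3. Il12b measured 32.2, 24.8 and 18.8 normalized counts in PBS replicates 1, 2 and 3, and 24.8, 12.1 and 31.2 in IRF5-NP replicates 1, 2 and 3. Every one of these values was below its sample's background, and a difference was not detectable at this depth. The log2 fold change was 0.14 (SE 0.45, adjusted p = 0.892) for Il12a and -0.30 (SE 0.47, adjusted p = 0.766) for Il12b, with signs that turned when 1 IRF5-NP sample was left out.

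Il23a, which encodes the p19 subunit of IL-23, measured 41.5, 25.9 and 35.1 normalized counts in PBS replicates 1, 2 and 3, and 16.2, 16.5 and 23.4 in IRF5-NP replicates 1, 2 and 3. All IRF5-NP values and that of PBS replicate 2 were below background. The log2 fold change was -0.90 (SE 0.36, adjusted p = 0.168).

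The other interleukins that reached background in some samples were Il3, Il9 and Il27. Il3, a growth factor of myeloid cells, lay between 21.0 and 39.3 normalized counts in 5 samples and at 109 in IRF5-NP replicate 3, the sample of the smallest total. Il9, a cytokine of T and mast cells, lay between 28.8 and 78.0, and Il27, a subunit of IL-27, the ligand of the Il27ra product, between 13.5 and 32.6. Their log2 fold changes were 0.09, 0.29 and 0.48, and the adjusted p-values 0.954, 0.705 and 0.608. Il4i1 lay between 16.2 and 33.1 normalized counts in both groups. Il13, Il2, Il22, Il25, Il4 and Il5, products mainly of lymphoid and epithelial cells, had no value above background.

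**Figure D3:**
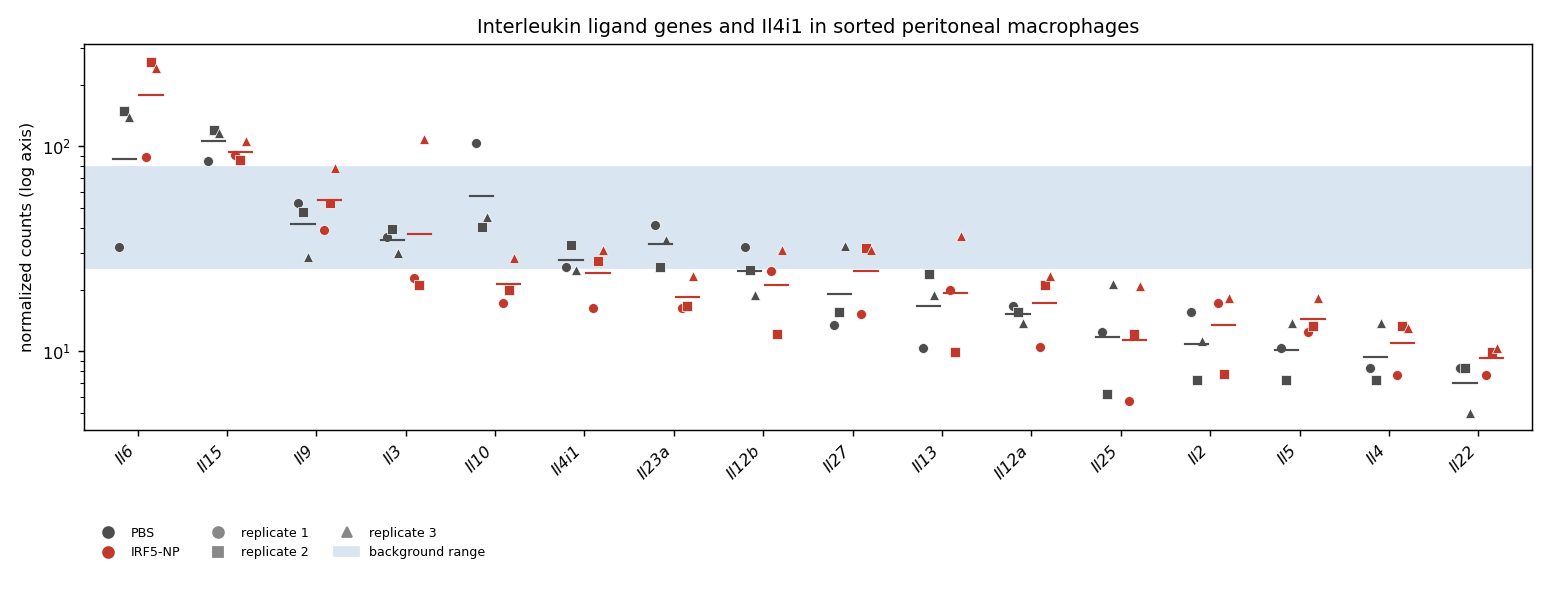
Normalized counts (log axis) of the 16 genes on the ligand side in each of the 3 PBS and 3 IRF5-NP samples, with geometric means of the 3 samples as horizontal bars and the range of the 6 background values, 25.6 to 79.4, shaded. Il15 and several Il6 values lay above the band, Il10 was above background in the PBS samples alone, and most other genes lay within or below it.

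Genes that act downstream of these receptors were examined as a list of 28 JAKs, STATs, SOCS proteins, shared receptor chains and related cytokines, of which 12 were measured. Limma called 2 of the 12 (16.7%), against 9.55% of the panel, and the same 2 at an unadjusted p under 0.05, against 25.3% of the panel. Both were feedback inhibitors of JAK-STAT signaling and lower with IRF5-NPs, a direction called for 7.03% of the panel, and the median log2 fold change of the 12 was -0.12, beside -0.03 over all genes. Socs2 measured 234, 134 and 129 normalized counts in PBS replicates 1, 2 and 3, and 51.4, 49.6 and 54.6 in IRF5-NP replicates 1, 2 and 3. All PBS values exceeded all IRF5-NP values, and Socs2 fell by 1.74 on the log2 scale (SE 0.31, adjusted p = 0.0155). The value of IRF5-NP replicate 3 was below that sample's background of 79.4. Socs3, the inhibitor that acts on the IL-6 receptor complex, measured 2119, 1593 and 1585 normalized counts in PBS replicates 1, 2 and 3, and 1106, 769 and 850 in IRF5-NP replicates 1, 2 and 3. Its groups were likewise separate, and it fell by 1.03 (SE 0.24, adjusted p = 0.0380). With IRF5-NP replicate 3 left out, neither passed (adjusted p = 0.0658 for Socs2 and 0.18 for Socs3). Socs2 also missed the threshold after background subtraction (adjusted p = 0.0707), and the highest background as a floor cut its change to -1.14 (adjusted p = 0.0484). Socs3 also missed it without IRF5-NP replicate 2 (adjusted p = 0.135), with a common median (-0.79, adjusted p = 0.082) and with quantile normalization (-0.74, adjusted p = 0.118). The same held for Socs3 without the mean-variance trend (adjusted p = 0.0928) and with the background as a floor (adjusted p = 0.0523). Without PBS replicate 1, which left 1 PBS value to compare, the changes were -1.33 for Socs2 and -0.82 for Socs3.

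Targets of IL-4 in macrophages were examined beside Il4ra, as a list of 18 genes of which 14 were measured. Limma called 3 of the 14 (21.4%), all lower with IRF5-NPs, against 9.55% of the panel in either direction and 7.03% lower. The log2 fold changes of the 14 ran from -5.32 to 1.61 with a median of -0.58. The top value was that of Alox15, a lipoxygenase gene named after its values were seen (SE 0.52, adjusted p = 0.0881). Chil3 and Chil4, which encode chitinase-like proteins, had log2 fold changes of -5.23 and -5.32 (adjusted p = 0.00018 for both). Both passed whichever IRF5-NP sample was left out, though not in the methods' t-test, run with PBS replicates 2 and 3 averaged. Without PBS replicate 1, which left 1 PBS value to compare, the changes were -5.46 and -5.58. Chil3 and Chil4 are near-identical paralogs whose probes may share transcripts. Cdh1, which encodes E-cadherin, measured 80.9, 86.9 and 97.6 normalized counts in PBS replicates 1, 2 and 3, and 35.2, 40.8 and 36.4 in IRF5-NP replicates 1, 2 and 3, and it fell by 1.19 (SE 0.28, adjusted p = 0.0363). With any 1 of the IRF5-NP samples left out (adjusted p = 0.0638 to 0.109), Cdh1 missed the threshold. Without PBS replicate 1, which left 1 PBS value to compare, its change was -1.28. IRF5-NP replicates 1 and 3 were below background for Cdh1, its change was -0.12 (adjusted p = 0.596) with values under the highest background raised to it, and the call was lost with a common median (adjusted p = 0.0662) and quantile normalization (adjusted p = 0.0502). The transcripts of the ligands, Il4 and Il13, were below background in every sample of these sorted cells, and the cytokines themselves were not measured.

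Sums of some marker lists of other cells moved with the groups and with PBS replicate 1, though single markers could differ from their list. Their part in the differences above was not tested. In sorted bulk samples, fewer cells of a type and less RNA per cell cannot be told apart. The summed level of 4 measured markers of resident peritoneal macrophages (of a list of 8) was 5666 to 8863 normalized counts with PBS and 10534 to 28635 with IRF5-NPs. That of 8 neutrophil markers (of 9) was 6658 in PBS replicate 1 and 2168 at the lowest in the PBS group, against 1581 to 2528 with IRF5-NPs. Mpo and Camp were below background in every sample. S100a8 (3405) and S100a9 (2598) were the largest parts of the 6658. Csf3r of the same list was higher with IRF5-NPs, at a mean of 807 against 435 (log2 fold change 0.88, adjusted p = 0.0459 in limma). PBS replicate 1 also had the highest Il10, Il15ra, Il4ra, Il6ra, Il17ra, Il21r and Il23a. It had the lowest Il6, Il27ra, Il18r1, Il10ra and Il15. The 6 mast cell markers (of 7) summed to 234 to 361 with PBS and 568 to 969 with IRF5-NPs, with Ms4a2 and Tpsb2 below background in every sample. Hdc was the largest part of these sums, at 143 to 242 with PBS and 415 to 865 with IRF5-NPs. Cpa3 was also higher with IRF5-NPs (8.30 to 15.5 against 30.9 to 53.3). Kit was lower (53.8 to 71.4 with PBS against 28.6 to 49.5), and Fcer1a overlapped. The single B cell marker measured (of 5), Ms4a1, was 16.3 to 25.9 with PBS and 50.5 to 75.4 with IRF5-NPs. The sums of 3 NK and innate lymphoid cell markers (of 7, with Nkg7 below background throughout), at 102 to 138 and 101 to 135, overlapped. So did those of 5 eosinophil markers (of 6, with Ccr3, Prg2, Epx and Il5ra below background throughout), at 75.1 to 88.1 and 71.7 to 107. The 4 monocyte markers (of 5) summed to 4878 to 6474 and 5132 to 6086, and the 4 dendritic cell markers (of 7, with Xcr1 below background throughout) to 164 to 193 and 97.0 to 148. No T cell, tumor cell or mesothelial marker of the lists was on the panel.

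**Figure D4:**
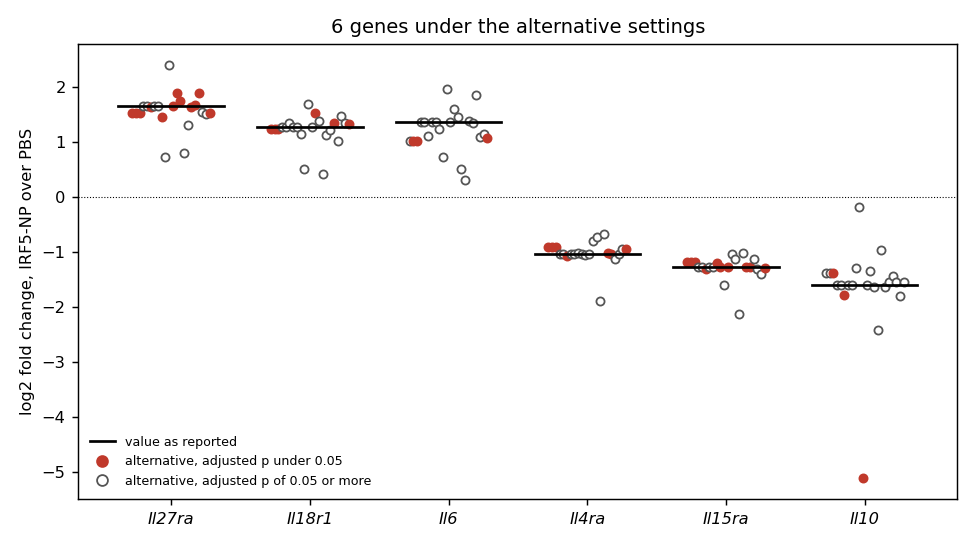
The log2 fold change, IRF5-NP over PBS, of Il27ra, Il18r1, Il6, Il4ra, Il15ra and Il10 as reported (line) and under 22 alternatives in processing or samples (points, filled where the adjusted p was under 0.05). Il27ra ranged from 0.72 to 2.40 and passed in 12 of the 22, and Il15ra from -2.14 to -1.02 and passed in 10.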

How the data were processed

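Gene expression was measured with the NanoString nCounter Myeloid Innate Immunity panel (754 genes, 8 negative and 6 positive control probes). The unit of the values the authors deposited is a signal, the normalized count on a linear scale. The study's methods describe quality control with NanoStringQCPro and scaling by housekeeping genes (their geometric mean) in nSolver. In each sample, 754 of 754 gene values (100%) were whole counts times 1 factor, within 0.01, and these counts gave the depth, the background, the chi-square comparison of replicates and, in edgeR 4.0.16 (quasi-likelihood test, factors as library sizes), a count test that called 90 genes. The positive controls differed up to 2.42 times between samples.

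The 26 genes and the gene lists were chosen with earlier results of these data known. Every member is named, with values per sample for Il6, Il10, Il12a, Il12b, members past the threshold and receptors above background. Other genes were named as members of the lists past the threshold, while Il15, Il23a and the sort markers were added after their values were seen. Groups came from the sample labels. PBS replicates 2 and 3 entered as their log2 mean, 1 sample. Expression was compared with limma 3.58.1 (lmFit, then eBayes with its trend option) in R 4.3.3 on log2(value + 1), two-sided, with no gene left out, Benjamini-Hochberg adjustment over 754 genes and a threshold of 0.05. Fold changes on this scale understate those of genes near background. In simulated data, the fit called 74 of 100 genes with a true log2 change of 1 and 98 of 100 with a change of 2. It made 4 false calls among 554 unchanged genes. The simulation held no gap between the replicates numbered 1 and the others, so these rates may not hold for the real samples. Alternatives changed the sample count, block, test, adjustment, variance prior, pseudocount, background, filter and scaling, and left out each replicate. Without PBS replicate 1, the PBS group held only the mean of replicates 2 and 3, so the text gives effect sizes alone. This fit stays among the alternatives counted. Leaving out PBS replicate 2 or 3 kept the other, much like their mean, and is no separate check. Python 3.11.15 with numpy 2.4.6, pandas 2.3.3, scipy 1.17.1 and matplotlib 3.10.9 was used for tables and figures. Of the 26 symbols, all matched RefSeq. No position of a probe is given. Counting intervals were not used, and precision is limited by the number of samples.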

Additional observations from a re-analysis of the deposited data

How the results depend on the processing

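Of the 26 genes, 2 were called, 1 higher and 1 lower, together with 2 signaling genes. The called, higher, lower and signaling counts were 4, 2, 2 and 2 with 6 separate samples and 4, 1, 3 and 2 with edgeR's quasi-likelihood test on the counts behind the values. The methods' t-test with Benjamini-Yekutieli or Benjamini-Hochberg adjustment, limma with Benjamini-Yekutieli adjustment, and positive control scaling each gave 0, 0, 0 and 0, while at an unadjusted p under 0.05 the t-test gave 5 of the 26 genes (125 of 754 on the panel), limma 7 (191) and limma after positive control scaling 3 (67). The t-test was run with PBS replicates 2 and 3 averaged, not on 6 separate samples. Without the mean-variance trend limma gave 0, 0, 0 and 1 (6 unadjusted, 181 on the panel). A floor at the highest background gave 1, 0, 1 and 1, with 13 of the 26 genes left to test, and background subtraction 2, 0, 2 and 0, with 21 left. The 2 genes called after subtraction had IRF5-NP values set to its floor of 1. A common median and quantile normalization each gave 2, 2, 0 and 1. Leaving out single samples other than PBS replicate 1 gave 0 to 4 called, 0 to 2 higher, 0 to 2 lower and 0 to 2 signaling genes. Limma called 0 of the 26 genes when IRF5-NP replicate 2 (5 unadjusted, 147 on the panel) or IRF5-NP replicate 3 (6 unadjusted, 150) was left out. Without PBS replicate 1 only 1 PBS value remained, so no count is given there. A pseudocount of 10 and a filter on background gave the main counts.

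Whether the replicate numbers pair the samples cannot be told, since PBS replicates 2 and 3 were counted as 1 sample. Deviations from the group means of same-numbered samples correlated across 482 genes by 0.158, 0.178 and 0.095. PBS replicate 3 correlated with IRF5-NP replicate 2 by 0.144. PBS replicate 1 correlated with IRF5-NP replicates 2 and 3 by -0.167 and -0.098. The replicate block on 6 separate samples gave 5, 3, 2 and 2, against 17.9% of the panel called. It added Il6 to the 4 genes of the unblocked fit. A block that set both number 1 replicates apart gave 7, 4, 3 and 3, against 27.1% of the panel. The latter with PBS replicates 2 and 3 averaged, chosen after seeing the data, gave 5, 3, 2 and 2, against 17.6% of the panel.

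Of 414 values of 19 named genes under the alternatives, 319 kept direction and side of the threshold, 57 lost a call, 21 gained one and 17 changed sign. The alternatives share samples and steps, so these counts are not independent checks. The sign changed under positive control scaling for Il12a (-0.67), Il10ra (-0.37), Il3ra (-0.33) and Il6ra (-0.75), under a common median for Il17ra (0.083) and Il21r (0.018), and under quantile normalization for Il17ra (0.020). As single samples were left out, Il12a ranged from -0.063 (without IRF5-NP replicate 3) to 0.48, Il12b from -0.57 to 0.073 (without IRF5-NP replicate 2) and Il17ra from -0.30 to 0.065 (without PBS replicate 1). Irf5 changed sign with 6 separate samples, with or without either block (0.034), with a common median (0.21), with quantile normalization (0.33), and without PBS replicate 1 or IRF5-NP replicate 1, within a range of -0.083 to 0.16 as single samples were left out. Scaling moved the median of all genes from -0.03 to 0.21 with a common median, 0.11 with quantile normalization and -0.88 with positive controls. A common median and positive control scaling move all genes of a sample by the same factor, apart from the pseudocount. The sign changes under those scalings came with this shift of the whole panel. The cause of the other sign changes was not tested. Genes near background are limited by counts of 4 to 31.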
